A study of Mus musculus with 16 samples.

Results

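Mouse monocytes that received no stimulus were compared after 24 h and after 6 h in culture. The comparison holds 8 of the 16 RNA-sequencing libraries of the series, 4 at each time, chosen by the stimulus and time in their titles. The other 8 libraries are of monocytes given interferon-γ plus CD40L and serve below only to show where the unstimulated cells differ. The study asked what the loss of NFAM1, a receptor with an ITAM signaling motif, does to monocytes.

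At each time, by title, 2 libraries are from NFAM1+/+ and 2 from NFAM1-/- mice of the C57BL/6 strain, and the genotypes were pooled. The knockout was made with CRISPR and removes exons 2 and 3 of Nfam1. Libraries 1 and 2 (wild type) and 3 and 4 (knockout) are at 6 h. Libraries 44 and 45 (wild type by title) and 43 and 46 (knockout by title) are at 24 h. For libraries 44 and 46 the title and the genotype tag name opposite genotypes, and either reading gives 2 libraries of each genotype. The cells for sequencing came from 4 mice with NFAM1 and 6 without it, as the legend for that experiment states. The ages of these mice, and which mice are behind each library, are not given in the sources used here. The labels call the cells blood monocytes, whereas the study's methods isolate mouse monocytes from bone marrow with an enrichment kit. The study's methods for stimulating mouse monocytes name RPMI with fetal bovine serum in multiwell plates and no added growth factor. Its sequencing methods name no medium or plate, so the culture of these 8 samples is not stated directly. The libraries of one time may also share a preparation, so time and preparation cannot be told apart. No source says that the libraries come from separate cultures or mice at each time, so p-values measure only the spread between these samples.

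Monocytes are short-lived blood cells made in the bone marrow from dividing precursors. On leaving the circulation or on adhering to plastic they can become macrophages, which are larger, rich in lysosomes, take up dying cells and display antigen on MHC class II. In the mouse, classical monocytes carry Ly6C and CCR2, and non-classical monocytes carry CD43, the product of Spn.

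The cells carried the monocyte genes at both times. Values of single genes are given in CPM, reads scaled to a common library size and not to gene length, in the order of libraries 1, 2, 3 and 4 at 6 h and 43, 44, 45 and 46 at 24 h. Csf1r, the receptor for the growth factor M-CSF, stood at 2997, 2979, 2805 and 2665 CPM at 6 h and at 2902, 3274, 3286 and 2606 CPM at 24 h. Lyz2, which encodes lysozyme, ranged from 15690 to 17380 CPM at 6 h and from 19866 to 23256 CPM at 24 h. Ccr2 and Ly6c2 overlapped between the times, with log2 fold changes of 0.15 ± 0.11 (SE) and 0.26 ± 0.13. Of 12 monocyte markers, 3 were higher at 24 h, 1 was lower and 8 did not pass the test described below, and their summed level was 23341 to 25531 CPM at 6 h and 27436 to 31578 CPM at 24 h.

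Depth was 48295939 to 88514341 reads per library at 6 h and 56328053 to 67525219 at 24 h, counted over the genes of the table. Library 2 is the shallowest at 6 h. Pearson's r between log2 CPM of 2 libraries, across genes, was 0.986 to 0.991 within 6 h, 0.983 to 0.989 within 24 h and 0.863 to 0.888 between the times. Transcripts of stomach and gut epithelium were present in the 4 unstimulated libraries at 6 h and nearly absent from the 12 others. Over 24 such genes, chosen after their values were seen, the summed level was 324, 204, 169 and 114 CPM in libraries 1 to 4, 0.498 to 0.921 CPM in libraries 43 to 46 and 0.334 to 0.947 CPM in the stimulated libraries. A fall of such a gene is given only where the rule for named genes asks for it, and the source of these reads was not tested.

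Of 11494 genes tested, 2251 were called changed between 24 h and 6 h, which is 19.6%. A call needed a change of 2-fold or more with an adjusted p below 0.05 in limma, a linear model across all genes with Benjamini-Hochberg adjustment. Of these, 1417 (12.3% of the genes tested) rose and 834 (7.26%) fell. The call was stronger than 4-fold for 370 of the genes that rose and for 351 of those that fell. All 4 libraries at 24 h lay above all 4 at 6 h for 3787 genes (32.9%) and below them for 3375 (29.4%), so that groups without overlap were common. The median log2 fold change over all genes tested was 0.03. A gene was tested if it reached 1 CPM in 4 libraries, and 213 genes did so only at 24 h (200 of them called higher) and 133 only at 6 h (130 called lower), so that the times of these genes could not overlap. Without libraries 44 and 46, 1943 genes were called, of which 1827 were among the 2251.

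**Figure D1:**
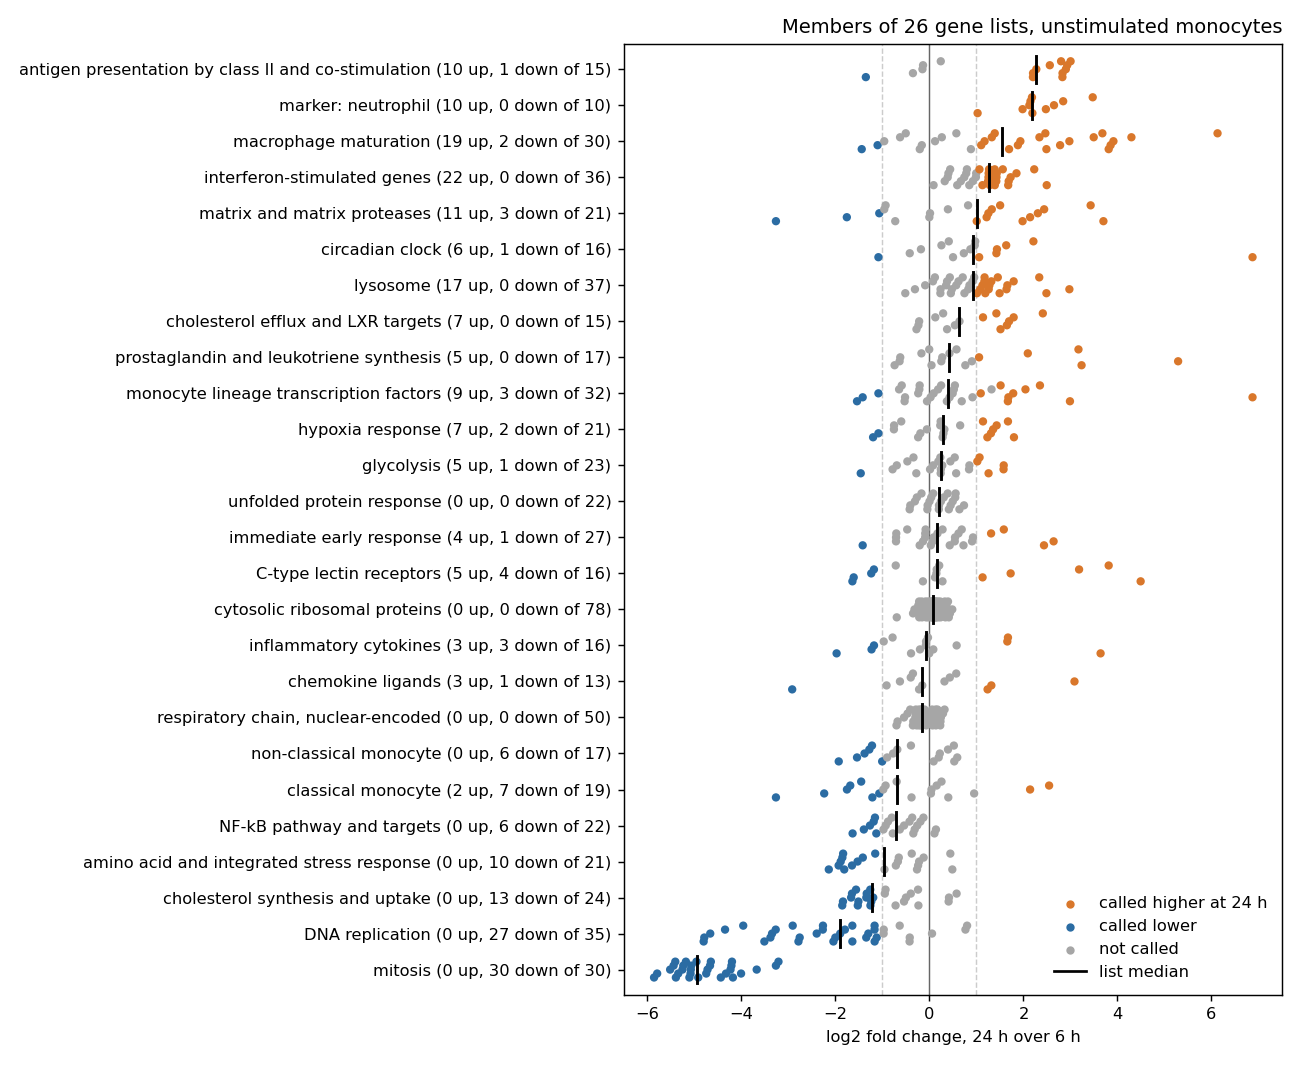
Log2 fold change at 24 h over 6 h (horizontal axis) of the tested members of 26 gene lists (rows), 1 point for each gene, colored by the call, with a black bar at the list median. All 30 mitosis genes lie below -3, and 10 of 15 genes of class II presentation and co-stimulation lie above 2.

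The genes of cell division made up the largest fall. All 30 mitosis genes tested fell (against 7.26% of all genes), at a median of -4.94 on the log2 scale and a range from -5.86 to -3.21. Their summed level was 4039 to 4503 CPM at 6 h and 160 to 199.6 CPM at 24 h. Top2a, a topoisomerase that untangles chromosomes, stood at 454, 520, 466 and 460 CPM and then at 10.5, 9.09, 7.08 and 7.90 CPM (log2 fold change -5.79 ± 0.11, adjusted p = 2.10e-11). Mki67, the proliferation marker Ki-67, stood at 661, 683, 647 and 643 CPM at 6 h. It stood at 37.5, 34.1, 38.9 and 30.1 CPM at 24 h (-4.23 ± 0.07). Within each time the libraries were close together for both genes, and no value at 24 h came near the lowest at 6 h.

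The fall ran through every step of mitosis that the list covers. Cdk1, the kinase that starts mitosis, fell from 69.7, 97.0, 76.2 and 75.3 CPM to 2.19, 2.10, 2.00 and 1.30 CPM (-5.41 ± 0.17). Its partners, the cyclin genes Ccnb1 and Ccna2, had log2 fold changes of -5.35 and -5.18. Among spindle motors and regulators, Kif11 was at -5.44 and Prc1 at -5.52. Plk1, a mitotic kinase, was at -5.26, and Birc5, the survivin subunit of the chromosomal passenger complex, at -5.40. Cdc20 and Ube2c, which act in the destruction of cyclins, were at -4.33 and -5.11. Foxm1, the transcription factor that drives many of these genes, fell by 4.67. The smallest falls of the list were those of the checkpoint gene Bub1b (-3.21 ± 0.11) and the spindle gene Tacc3 (-3.27 ± 0.09).

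The rule that named the largest falls over the whole table, past the stomach genes, gave more genes of division. Ska1, a kinetochore gene, stood at 20.5 to 25.6 CPM at 6 h and at 0.0288 to 0.376 CPM at 24 h. Pbk, a mitotic kinase, had a log2 fold change of -6.87, Esco2, which joins sister chromatids, of -6.45, and Ncapg, a condensin subunit, of -6.07. Depdc1a, Spc24 and Nusap1 were at -6.05, -5.97 and -5.86. Dmkn, an epithelial secreted protein gene that is not on the stomach list, fell from 16.6 to 23.6 CPM to 0.0753 to 0.501 CPM. The 3 other genes were Gkn1, Gkn2 and Pgc, all products of the stomach lining. Gkn1 stood at 56.3, 32.8, 27.9 and 17.8 CPM at 6 h with 0 reads in the 12 other libraries, and Gkn2 also had 0 reads at 24 h. Against a floor of 3 reads in each library, Gkn1 was at least 812-fold and Gkn2 at least 590-fold lower at 24 h. Ska1, Dmkn and these 3 stomach genes were under 1 CPM in every library at 24 h and passed the filter only through 6 h. They are described by their values alone, and others of the genes named in this paragraph may share this limit.

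DNA replication fell less evenly than mitosis. Of 35 genes tested, 27 fell (77.1%, against 7.26% of all genes), 0 rose and 8 were not called. The median was -1.90 on the log2 scale. Of the 34 that reached 1 CPM at both times, 26 fell (76.5%, against 6.32% of all such genes). Pole, the leading-strand polymerase, had a log2 fold change of -4.81 and Rrm2, a ribonucleotide reductase subunit, of -4.79. Rrm2 stood at 70.6, 77.8, 70.9 and 71.3 CPM at 6 h and at 3.06, 2.27, 1.86 and 3.64 CPM at 24 h. Uhrf1, which copies DNA methylation, was at -4.66 and Mcm10, a replication initiator, at -4.35. The MCM helicase genes were spread out: Mcm5 fell by 2.91, whereas Mcm6 and Mcm3 each fell by 1.17. Mcm6 stood at 50.5, 49.4, 53.1 and 56.5 CPM at 6 h and still at 21.9, 24.7, 22.9 and 23.7 CPM at 24 h. The genes not called included Pcna at -0.42 and Cdt1 at 0.77.

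Of 15 genes that govern entry into the cycle (G1 cyclins, their kinases and inhibitors, and RB and E2F family genes), 4 fell and 1 rose (7.26% of all genes fell and 12.3% rose). Of the 4 that fell, 3 encode inhibitors of the kinases, and the other is Rbl1, a relative of the retinoblastoma gene, at -1.48. Cdkn2c (p18) and Cdkn2d (p19) had log2 fold changes of -3.39 and -1.88. Cdkn1a (p21) fell by 1.05 and was at -0.99 without library 1 or without library 43, which is under the 2-fold mark. Ccnd1, which encodes cyclin D1, rose from 0.722, 0.666, 0.918 and 1.46 CPM to 4.01, 4.45, 3.62 and 5.87 CPM (2.30 ± 0.27).

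The promoters of the mitosis and replication genes are printed because the members moved together. Each is a stretch of 100 bases of the RefSeq promoter on GRCm38.p6, read 5′ to 3′ on the strand of the gene, with the matches in capitals. For mitosis the capitals mark the cell cycle genes homology region, TTTGAA or its reverse TTCAAA. The stretches are Cdk1 at chr10:69352913-69353012 on the minus strand, Cdc20 at chr4:118437344-118437443 on the minus strand, Top2a at chr11:99024190-99024289 on the minus strand and Kif11 at chr19:37376282-37376381 on the plus strand.
Cdk1: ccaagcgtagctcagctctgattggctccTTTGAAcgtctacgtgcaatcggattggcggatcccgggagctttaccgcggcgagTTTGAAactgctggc
Cdc20: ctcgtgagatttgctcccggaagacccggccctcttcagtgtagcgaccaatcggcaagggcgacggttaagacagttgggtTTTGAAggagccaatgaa
Top2a: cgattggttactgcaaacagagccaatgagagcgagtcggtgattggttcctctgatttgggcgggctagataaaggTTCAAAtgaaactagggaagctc
Kif11: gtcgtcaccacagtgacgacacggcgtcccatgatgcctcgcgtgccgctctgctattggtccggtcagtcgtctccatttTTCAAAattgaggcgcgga

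In these 4 promoters the last match ended 9 to 17 bases before the annotated start of transcription. A match was found in 19 of 25 mitosis genes (76.0%), in 4 of 28 replication genes (14.3%) and in 14.6% of the 8747 genes tested with a promoter. Here and below, only genes with a promoter in the reference are counted, and a match in any promoter of a gene counts. The windows ran from 250 bases before to 50 after the start and were searched on both strands. Over all 32851 promoters of the reference, counted singly and not by gene, the share was 17.9%. The CCAAT box was found in 20 of 25 mitosis genes (80.0%), 16 of 28 replication genes (57.1%) and 43.2% of the genes tested with a promoter.

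For replication the capitals mark an E2F site, TTTNGCGC or its reverse GCGCNAAA. The stretches are Mcm6 at chr1:128359715-128359814 on the minus strand and Mcm5 at chr8:75109298-75109397 on the plus strand, where both matches overlap in a single run.
Mcm6: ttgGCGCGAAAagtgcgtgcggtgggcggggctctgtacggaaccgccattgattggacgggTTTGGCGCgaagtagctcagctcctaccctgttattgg
Mcm5: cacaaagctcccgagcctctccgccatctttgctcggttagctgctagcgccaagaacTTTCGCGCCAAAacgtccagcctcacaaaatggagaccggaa

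An E2F match was found in 10 of 28 replication genes (35.7%), in 2 of 25 mitosis genes and in 3.00% of the genes tested with a promoter. A match is a description of the letters and not of binding.

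**Figure D2:**
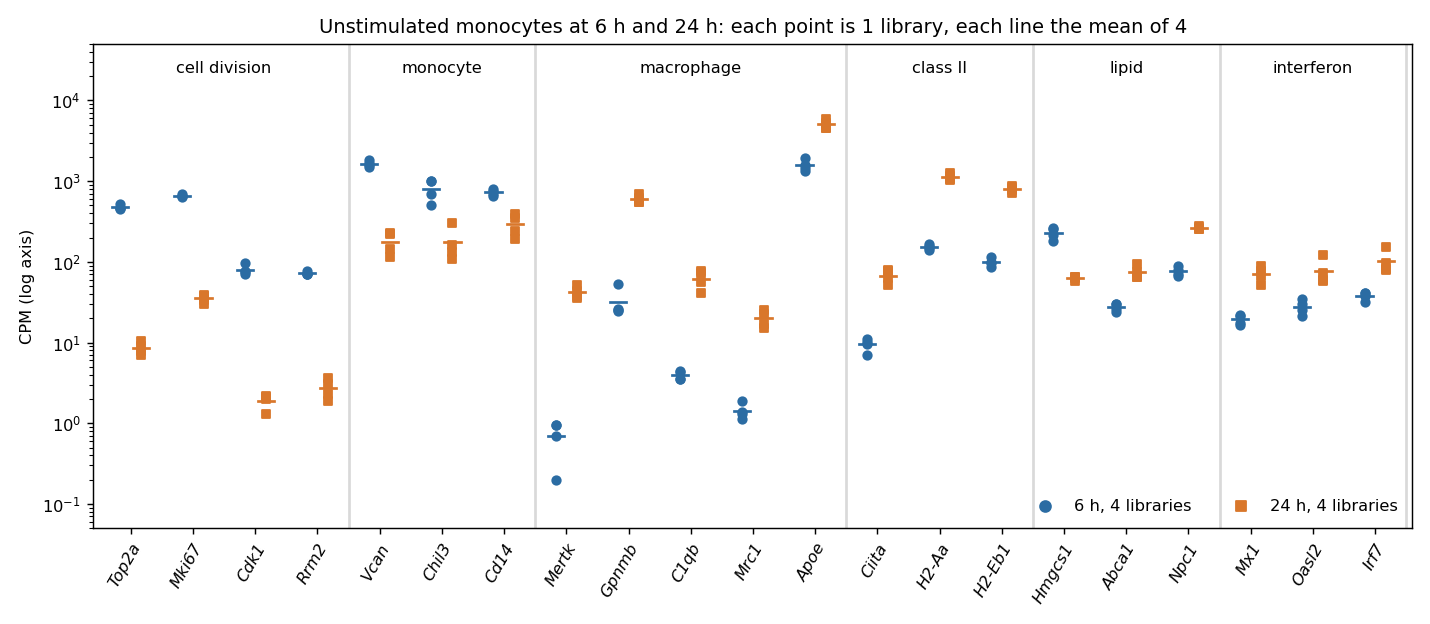
CPM on a log axis (vertical) of 21 genes, grouped by role, in the 4 libraries at 6 h (blue circles) and the 4 at 24 h (orange squares), with a line at each mean. For each of these genes the times do not overlap.

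Of 19 genes of classical monocytes, 7 fell, 2 rose and 10 were not called (7.26% of all genes fell and 12.3% rose). Vcan, a proteoglycan of the matrix, stood at 1831, 1476, 1564 and 1658 CPM at 6 h and at 224, 114, 144 and 222 CPM at 24 h (-3.27 ± 0.19, adjusted p = 6.03e-08). Chil3, a chitinase-like secreted protein, fell from 503 to 1004 CPM to 108 to 300.2 CPM (-2.24 ± 0.30). Plac8 had a log2 fold change of -1.69 and S100a4 of -1.45. Fn1, fibronectin, fell by 1.07 and was at -0.98 without library 44 and -0.93 without both libraries 44 and 46. The genes that rose were Ly6a (Sca-1, 2.55 ± 0.22) and Thbs1 (thrombospondin 1, 2.14 ± 0.31). Ms4a4c at -0.98, F13a1 at -0.93 and Mgst1 at 0.95 were short of the 2-fold mark, though their times did not overlap.

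Genes of non-classical monocytes did not rise in place of the classical ones. Of 17 tested, 6 fell (35.3%, against 7.26% of all genes), 0 rose and 11 were not called. Spn stood at 327, 338, 291 and 294 CPM at 6 h and at 86.2, 87.8, 84.2 and 70.0 CPM at 24 h (-1.93 ± 0.08). Ace, the angiotensin-converting enzyme, was at -1.38, Treml4 at -1.28 and Cd300e at -1.22. Cx3cr1, the fractalkine receptor, was at -0.39, and Fcgr4 at 0.53, neither called. Cd14, the co-receptor for lipopolysaccharide, fell from 807, 758, 689 and 648 CPM to 241, 395, 344 and 193 CPM (-1.36 ± 0.19), and of the 24 Toll-like receptor and adaptor genes it was the only one to fall.

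Macrophage genes rose, several of them from near the lower limit. Of 30 genes of macrophage maturation tested, 19 rose, 2 fell and 9 were not called, with a median log2 fold change of 1.54 (12.3% of all genes rose). Of the 29 that reached 1 CPM at both times, 18 rose, and the median was 1.39 (10.9% of all such genes rose). Mertk, a receptor for dying cells, is described here by its values alone, since it was under 1 CPM in every library at 6 h and passed the filter only through 24 h. It stood at 0.961, 0.200, 0.692 and 0.940 CPM at 6 h and at 35.3, 51.8, 37.6 and 43.6 CPM at 24 h (6.13 ± 0.42). Gpnmb, a glycoprotein of lysosomes and phagosomes, stood at 24.8, 26.1, 25.1 and 52.4 CPM and then at 613, 552, 546 and 687 CPM (4.30 ± 0.21). C1qb, a chain of complement C1q, rose from 3.57 to 4.39 CPM to 40.5 to 76.4 CPM (3.91 ± 0.18). The other chains rose with it, C1qc by a log2 fold change of 3.49 and C1qa by 2.78. Mrc1, the mannose receptor CD206, rose from 1.86, 1.29, 1.14 and 1.39 CPM to 25.6, 15, 17 and 22.7 CPM (3.81 ± 0.20).

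Other members of the list moved in both directions. Fabp5, a fatty acid binding protein, rose from 10.2, 9.73, 8.56 and 11.0 CPM to 140, 153, 144 and 132 CPM (3.85 ± 0.08). Apoe, which carries cholesterol out of the cell, was abundant at both times, at 1442, 1317, 1913 and 1597 CPM and then at 5220, 4559, 4536 and 5882 CPM (1.69 ± 0.12). Trem2, a lipid receptor, rose by a log2 fold change of 1.88, the dying-cell receptor Axl by 1.93 and Siglec1 (CD169) by 3.68. Olr1, a receptor for oxidized lipoprotein, fell by 1.44. Lpl, lipoprotein lipase, fell by 1.10 and was at -0.95 without library 43. Spp1, which encodes osteopontin, was at -0.96 ± 0.14, short of the 2-fold mark, and reached -1.02 to -1.07 without library 2, 3 or 46.

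The rule for named rises also gave Hpgds, Igf1, Ms4a7, Sorbs3, Fscn1 and Mmp9. Igf1, insulin-like growth factor 1, rose from 3.88, 1.58, 1.76 and 2.72 CPM to 31.5, 54.1, 46.9 and 45.5 CPM (4.23 ± 0.26). Ms4a7, a membrane protein of macrophages, rose from 3.42 to 3.97 CPM to 37.7 to 64.6 CPM (3.70 ± 0.16). Sorbs3, the adhesion adaptor vinexin, rose from 0.581 to 1.18 CPM to 18.6, 42.8, 30.8 and 10.5 CPM (4.84 ± 0.39). Fscn1, the actin bundler fascin that is known from mature dendritic cells, rose from 0.948 to 2.86 CPM to 14.1 to 37.0 CPM (3.74 ± 0.36).

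Of 32 transcription factors of the monocyte lineage, 9 rose (28.1%, against 12.3% of all genes) and 3 fell (9.38%, against 7.26%). Batf3 and Bhlhe41 passed the filter on low values only through 24 h. Of the 30 that reached 1 CPM at both times, 7 rose (23.3%, against 10.9% of all such genes) and 3 fell (10%, against 6.32%). Maf, which opposes division and promotes the macrophage state, rose by a log2 fold change of 2.35. Bhlhe41, a repressor known from macrophages and from the clock, stood at 0.0392 to 0.188 CPM at 6 h and at 9.89 to 15 CPM at 24 h (6.87 ± 0.44). Cebpa rose from 135, 147, 138 and 137 CPM to 430, 400, 410 and 544 CPM (1.67 ± 0.09). Cebpb, of the same family, fell from 752, 723, 641 and 443 CPM to 159, 285, 263 and 180 CPM (-1.54 ± 0.20). Id2, Runx3, Irf4 and Batf3, which are known from dendritic and lymphoid cells, rose by 1.78, 1.68, 1.51 and 2.99. Klf2 fell by 1.42. Spi1 (PU.1) at -0.59 and Irf8 at 0.18 were not called.

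MHC class II rose as a block. Of 15 genes of class II presentation and co-stimulation, 10 rose and 1 fell (against 12.3% and 7.26% of all genes), and their median was 2.27 on the log2 scale. Ciita, the master activator of class II, rose from 10.1, 11.2, 7.04 and 9.65 CPM to 76.8, 52.2, 62.1 and 78.5 CPM (2.83 ± 0.16, adjusted p = 4.38e-08). H2-Aa, an α chain, rose from 155, 166, 138 and 148 CPM to 1276, 1062, 1041 and 1164 CPM (2.90 ± 0.08). H2-Ab1 and H2-Eb1, both β chains, rose by 2.93 and 3.00, and Cd74, the invariant chain, by 2.20. The peptide exchange genes H2-DMa, H2-DMb1 and H2-Ob rose by 2.20, 2.83 and 2.80.

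The co-stimulatory genes of the list did not follow. Cd40 fell from 64.7, 67.3, 61.9 and 46.1 CPM to 20.2, 27.0, 26.5 and 20 CPM (-1.35 ± 0.14). Cd80, Cd86, Cd274 and Pdcd1lg2 were at -0.35, -0.15, 0.24 and -0.14, and none was called. Markers of conventional dendritic cells, which are rich in class II, moved with this block: 7 of 9 rose (against 12.3% of all genes). Of the 8 that reached 1 CPM at both times, 6 rose (75%, against 10.9% of all such genes). The summed level of the marker list was 109 to 130 CPM at 6 h and 279 to 432 CPM at 24 h. The part of these markers in the rise of class II was not tested.

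Promoters of H2-Aa and H2-Eb1 are printed for the class II Y box, CTGATTGG or its reverse CCAATCAG, which is in capitals and holds a CCAAT box. They are 120 bases each from RefSeq on GRCm38.p6, at chr17:34287837-34287956 on the minus strand and chr17:34305723-34305842 on the plus strand.
H2-Aa: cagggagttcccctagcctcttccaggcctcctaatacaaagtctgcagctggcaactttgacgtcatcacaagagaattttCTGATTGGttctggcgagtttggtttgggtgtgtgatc
H2-Eb1: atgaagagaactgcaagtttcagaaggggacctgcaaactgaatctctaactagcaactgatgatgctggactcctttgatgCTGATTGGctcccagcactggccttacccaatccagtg

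The match was found in 3 of 10 genes of the list with a promoter (30%) and in 6.69% of the genes tested with a promoter. MHC class I did not rise as a block. Of 21 class I genes, 2 rose and 3 fell (9.52% and 14.3%, against 12.3% and 7.26% of all genes). Nlrc5, the activator of class I, rose by 1.42, whereas H2-Q6 and H2-Q7 were at -2.63 and -2.30, and H2-K1 and H2-D1 were at -0.40 and -0.22. H2-Q6 and H2-Q7 are close copies whose reads may have been divided between them, so their separate values are uncertain.

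**Figure D3:**
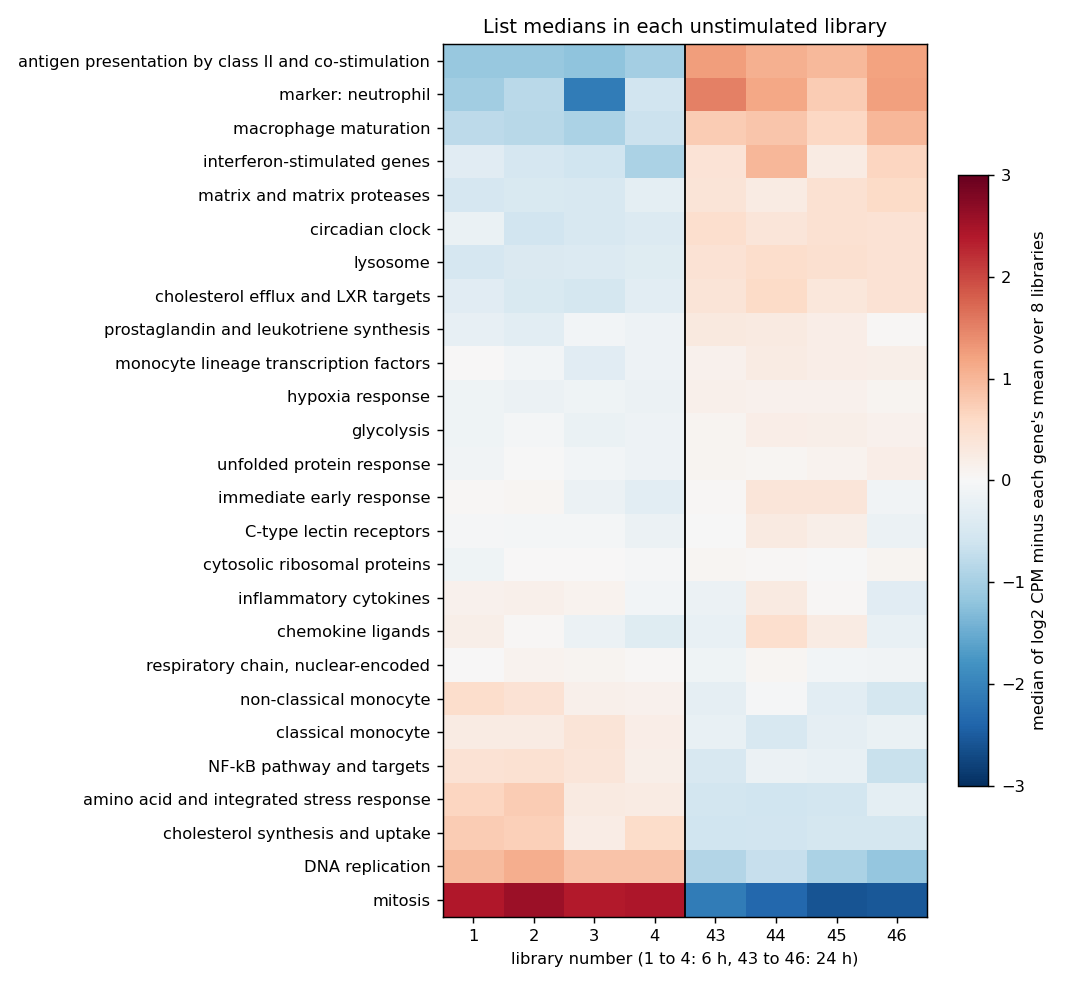
Median over each list's members of log2 CPM minus the gene's mean over the 8 libraries (color, from -3 to 3) for 26 lists (rows) in each unstimulated library (columns). Mitosis and DNA replication are above 0 in libraries 1 to 4 and below 0 in libraries 43 to 46, and the class II, macrophage and lysosome lists show the reverse.

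Genes of the lysosome, where macrophages break down what they take up, rose. Of 37 tested, 17 rose (45.9%, against 12.3% of all genes) and 0 fell, the median being 0.92 on the log2 scale. The 4 libraries at 24 h lay above the 4 at 6 h for 32 of these genes (32.9% of all genes). Their summed level was 14725 to 16002 CPM at 6 h and 29375 to 32333 CPM at 24 h. Ctsd, the protease cathepsin D, rose from 243, 226, 239 and 318 CPM to 1170, 1467, 1234 and 1282 CPM (2.34 ± 0.10). Psap, the precursor of the saposins that help degrade lipids, rose from 3475 to 4094 CPM to 10044 to 10523 CPM (1.45 ± 0.08). Npc1, which exports cholesterol from lysosomes, rose by 1.79, and Naglu, which degrades heparan sulfate, by 1.66. Of 17 genes of the vacuolar proton pump 2 rose, Tcirg1 (1.15) and Atp6v0a1 (1.51), a share of 11.8% against 12.3% of all genes, and the regulators Tfeb and Tfe3 were at 0.25 and -0.22.

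Cholesterol synthesis fell while export rose. Of 24 genes of cholesterol synthesis and uptake, 13 fell (54.2%, against 7.26% of all genes) and 0 rose. Their median log2 fold change was -1.22. Hmgcs1, an early enzyme of the pathway, stood at 264, 253, 181 and 216 CPM at 6 h and at 58.0, 65.0, 62.5 and 64.8 CPM at 24 h (-1.86 ± 0.10, adjusted p = 4.30e-08). Idi1, Fdft1, Sqle and Cyp51, later enzymes, had log2 fold changes of -1.84, -1.67, -1.65 and -1.51. At 6 h library 3 had the lowest level of each of these 5 genes. The gene for the regulator SREBP2, Srebf2, was at -0.54. The sterol regulatory element was searched as TCACNCCAC. It was found in 1 of 17 genes of the list with a promoter, Hmgcs1, and in 1.35% of the genes tested with one.

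Of 15 genes of cholesterol efflux and other targets of the LXR receptors, 7 rose (46.7%, against 12.3% of all genes) and 0 fell. Abca1 and Abcg1, both exporters, rose by 1.42 and 1.65, and Mylip, a ubiquitin ligase, by 1.51. Abca1 stood at 29.8, 24.1, 29.8 and 25.9 CPM and then at 64.2, 94.8, 73.7 and 64.0 CPM. Nceh1, which frees stored cholesterol, had the largest rise of the list (2.41 ± 0.16). The receptor gene Nr1h3 (LXRα) was at 0.54 and Srebf1 at -0.24, neither called. Fatty acid genes went with neither set: of 25 tested, 1 rose and 3 fell (4% and 12%, against 12.3% and 7.26% of all genes).

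Interferon-stimulated genes rose without a stimulus. Of 36 tested, 22 rose, 0 fell and 14 were not called (against 12.3% of all genes that rose). Of the 35 that reached 1 CPM at both times, 21 rose (60%, against 10.9% of all such genes). All 36 had a log2 fold change above 0, from 0.09 to 2.49, with a median of 1.26. Mx1, an antiviral GTPase, rose from 21.2, 22.2, 17.4 and 16.3 CPM to 66.6, 88.0, 51.0 and 76.0 CPM (1.85 ± 0.15, adjusted p = 1.17e-06). Oasl2, which senses double-stranded RNA, stood at 34.7, 29.7, 25.4 and 21.2 CPM and then at 58.8, 120, 57.1 and 72.9 CPM (1.43 ± 0.22). Irf7, a transcription factor of the interferon response, rose from 41.6, 41.0, 37.4 and 31.6 CPM to 81.2, 153, 78.4 and 95.4 CPM (1.38 ± 0.18). Library 44 was the highest and library 45 the lowest at 24 h for Oasl2 and Irf7.

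The rise was uneven within the family. Ifi44, Gbp7 and Xaf1 rose by 2.49, 2.23 and 1.68, and the RNA sensor gene Ddx58 (RIG-I) by 1.56. Ifit3 and Ifit2 rose by 1.43 and 1.67, and Ifit3 has a close copy, Ifit3b, whose reads may mix with its own. Rsad2, viperin, rose by 1.28 ± 0.21 and was at 0.95 without libraries 44 and 46. Gbp5, Irgm1, Gbp2 and Gbp3 were at 0.09, 0.32, 0.40 and 0.92, none called, whereas Ifi47 and Igtp rose by 1.31 and 1.06. Markers of plasmacytoid dendritic cells, which are known for making interferon, moved with the family: 5 of 7 rose (against 12.3% of all genes). Of the 6 that reached 1 CPM at both times, 4 rose (66.7%, against 10.9% of all such genes). The summed level of the marker list was 267 to 278 CPM at 6 h and 326 to 393 CPM at 24 h. The part of these markers was not tested. The interferon gene Ifnb1 was at 0.00437 to 0.200 CPM in the 8 libraries, under the filter on low values.

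Promoters of 4 of these genes are printed with the interferon-stimulated response element, searched on both strands, in capitals. Each is 100 bases from RefSeq on GRCm38.p6: Rsad2 at chr12:26456533-26456632 on the minus strand, Ifit3 at chr19:34583347-34583446 on the plus strand, Bst2 at chr8:71537557-71537656 on the minus strand and Gbp7 at chr3:142530223-142530322 on the plus strand.
Rsad2: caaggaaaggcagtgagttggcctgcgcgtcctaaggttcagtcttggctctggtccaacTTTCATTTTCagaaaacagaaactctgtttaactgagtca
Ifit3: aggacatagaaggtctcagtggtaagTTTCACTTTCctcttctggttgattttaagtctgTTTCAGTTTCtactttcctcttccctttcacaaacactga
Bst2: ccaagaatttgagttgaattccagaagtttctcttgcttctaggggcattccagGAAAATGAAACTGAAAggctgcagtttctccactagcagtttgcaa
Gbp7: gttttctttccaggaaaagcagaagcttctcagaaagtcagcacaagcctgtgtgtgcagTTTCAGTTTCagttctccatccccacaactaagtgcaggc

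In Bst2, which encodes the antiviral protein tetherin and rose by 1.39, 2 matches overlap. The element was found in 17 of 27 genes of the list with a promoter (63.0%), in 4.08% of the genes tested with one and in 3.44% of all single promoters.

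Genes of the NF-kB pathway fell. Of 22 tested, 6 fell and 0 rose (against 7.26% and 12.3% of all genes), and the 4 libraries at 24 h lay below the 4 at 6 h for 15 of them (29.4% of all genes), with a median log2 fold change of -0.71. Nfkb2, which encodes p100, stood at 403, 401, 375 and 338 CPM at 6 h and at 154, 198, 183 and 136 CPM at 24 h (-1.19 ± 0.11). The targets Traf1, Tnip1 and Icam1 were at -1.64, -1.40 and -1.16. Rela and Rel, subunits of the factor, were at -0.26 and 0.14.

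Inflammatory cytokines and chemokines moved both ways. Il1b, the cytokine interleukin-1β, fell from 324, 307, 263 and 216 CPM to 55.1, 117, 112 and 32.7 CPM (-1.98 ± 0.34, adjusted p = 0.000338). Libraries 44 and 45, the wild type ones by title, were highest at 24 h, as they were for Nfkb2, Cd14, Cebpb and Clec4e. For Cebpa they were lowest. Genotypes were pooled, and the part of genotype in these values was not tested. Tnf at -0.97 missed the 2-fold mark. Acod1, which makes itaconate, fell by 1.77. Tnfsf13b, the B cell factor BAFF, passed the filter on low values only through 24 h and is described by its values alone. It stood at 0.168 to 0.712 CPM at 6 h and at 4.22 to 5.95 CPM at 24 h (3.64 ± 0.42). Il15 and Vegfa rose by 1.66 and 1.67. Ccl2, the chemokine that draws monocytes, rose from 0.887 to 1.03 CPM to 5.56 to 10.1 CPM (3.08 ± 0.20), and Ccl24, which draws eosinophils, fell by 2.92. Il6 and Il12b were under the filter on low values, and Il10 was not analysed here.

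Of 16 C-type lectin receptors, 5 rose and 4 fell (against 12.3% and 7.26% of all genes). Clec4e (Mincle), which binds mycobacterial lipid, fell from 974, 1079, 879 and 701 CPM to 243, 357, 381 and 208 CPM (-1.64 ± 0.19). Its neighbor Clec4d was at -1.18 and Clec5a, which signals through DAP12, at -1.61. The galactose lectins Clec10a and Mgl2 rose by 3.18 and 4.49. Clec10a stood at 9.30, 9.18, 12.1 and 13.5 CPM and then at 133, 72.0, 80.6 and 123 CPM. Cd209a, a relative of DC-SIGN, rose by 1.73.

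Nfam1 itself stood at 432, 408, 299 and 321 CPM at 6 h and at 441, 463, 495 and 391 CPM at 24 h, with overlapping times (0.31 ± 0.12, adjusted p = 0.0353, not called for its size). By title the wild type libraries were the higher ones at each time, and by tag the genotypes overlapped at 24 h. The libraries with exons 2 and 3 deleted still give reads from the rest of the gene, so these values alone do not settle the genotype. Of 21 genes of Nfam1 and ITAM signaling, 2 rose and 4 fell, or 9.52% and 19.0%, (against 12.3% and 7.26% of all genes). Nfatc2, a transcription factor of the NFAT family, rose from 6.46 to 7.43 CPM to 33.8 to 39.9 CPM (2.36 ± 0.08). Trem3 and Trem1 had log2 fold changes of -1.37 and -1.05. Trem1 was at -0.95 without library 46 and -0.98 without libraries 44 and 46, under the 2-fold mark, as it also was without library 2. The kinase gene Fgr was at -1.02, and under the mark without library 2, 43 or 46, at -0.91 to -0.99. Syk, Tyrobp and Fcer1g were at 0.38, 0.04 and 0.27.

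Enzymes of prostaglandin synthesis rose in part. Of 17 genes of prostaglandin and leukotriene synthesis, 5 rose (29.4%, against 12.3% of all genes) and 0 fell. Hpgds, which makes prostaglandin D, rose from 0.819, 0.874, 0.822 and 1.46 CPM to 37.1, 41.9, 32.0 and 40.5 CPM (5.29 ± 0.19, adjusted p = 1.25e-09), among the 12 largest rises with a mean of at least 10 CPM. Tbxas1, thromboxane synthase, rose by 3.17, Ptgs1 (COX-1) by 3.24 and Alox15 by 2.09. Ptgs2 (COX-2), the inducible form, was at -0.74 and not called.

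Genes of the matrix and its proteases rose for 11 of 21 and fell for 3 (52.4% and 14.3%, against 12.3% and 7.26% of all genes). Timp2, an inhibitor of these proteases, rose from 3.02 to 4.20 CPM to 29.6 to 41.4 CPM (3.43 ± 0.14). Mmp14, a protease of the cell surface, rose by 1.5, and the plasminogen activator gene Plau by 2.31. Mmp9, a gelatinase, rose from 2.5, 3.99, 0.927 and 4.10 CPM to 43.1, 27.2, 25.7 and 35.9 CPM (3.70 ± 0.40). Itga6, a laminin receptor subunit, rose from 5.23, 6.15, 8.96 and 10.0 CPM to 79.1, 97.8, 63.9 and 101 CPM (3.52 ± 0.21), and Itgb5 rose by 1.61. Mmp9 and Mmp8, which rose by 1.98, are also granule proteins of neutrophils.

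Neutrophil markers rose, all 10 that were tested (against 12.3% of all genes). Of these, 2 were under 1 CPM in all 4 libraries at 6 h and so passed the filter only through 24 h. The 8 that reached 1 CPM at both times all rose (against 10.9% of all such genes), at a median of 2.16 on the log2 scale. The summed level of the 10 was 373 to 484 CPM at 6 h and 1108 to 1646 CPM at 24 h, and none of the 10 was at 0 in any unstimulated library. Ltf, lactoferrin, stood at 20.1, 21.1, 9.42 and 34.9 CPM and then at 187, 138, 104 and 138 CPM (2.84 ± 0.32). S100a9, a subunit of calprotectin, stood at 56.0, 57.8, 22.6 and 74.1 CPM and then at 284, 219, 157 and 201 CPM (2.12 ± 0.31). Library 3 was the lowest at 6 h and library 45 the lowest at 24 h for both. Csf3r, the receptor for G-CSF, rose by 1.02 and was at 0.97 without library 1 and 0.98 without library 43. In bulk RNA a change in the number of cells of a type and a change in RNA per cell cannot be told apart. Of 7 progenitor markers, 2 fell (28.6%, against 7.26% of all genes), 1 rose (14.3%, against 12.3%) and 4 were not called. Ctsg (cathepsin G) was at -3.55, Prtn3 (proteinase 3) at -3.06 and Cd34 at 1.39. Of 19 granule proteins of neutrophils and progenitors, 11 rose and 3 fell (57.9% and 15.8%, against 12.3% and 7.26% of all genes).

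Of 11 T cell markers 1 was tested, and the list summed to 0.585 to 2.18 CPM at 6 h and 3.26 to 7.25 CPM at 24 h. Erythroid markers summed to 4.05 to 16.6 CPM and 3.60 to 21.8 CPM, with 0 of 3 called. B cell markers summed to 189 to 266 CPM and 135 to 209 CPM. Igkc, the κ light chain, fell from 116, 67.2, 40.7 and 112 CPM to 11.4, 5.85, 7.43 and 10.9 CPM (-3.17 ± 0.32), whereas Cd79b, a chain of the B cell receptor complex, rose by 1.63. Plasma cell markers summed to 137 to 174 CPM at 6 h and 187 to 216 CPM at 24 h, and of the 3 tested Jchain, the antibody joining chain, fell by 3.01, Sdc1 rose by 1.37 and Xbp1 was at 0.55. Among dendritic cell genes, Flt3, the receptor of the FLT3 ligand, rose by 2.00, Ccr7, which guides them to lymph nodes, by 2.73 and Siglech by 2.26.

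**Figure D4:**
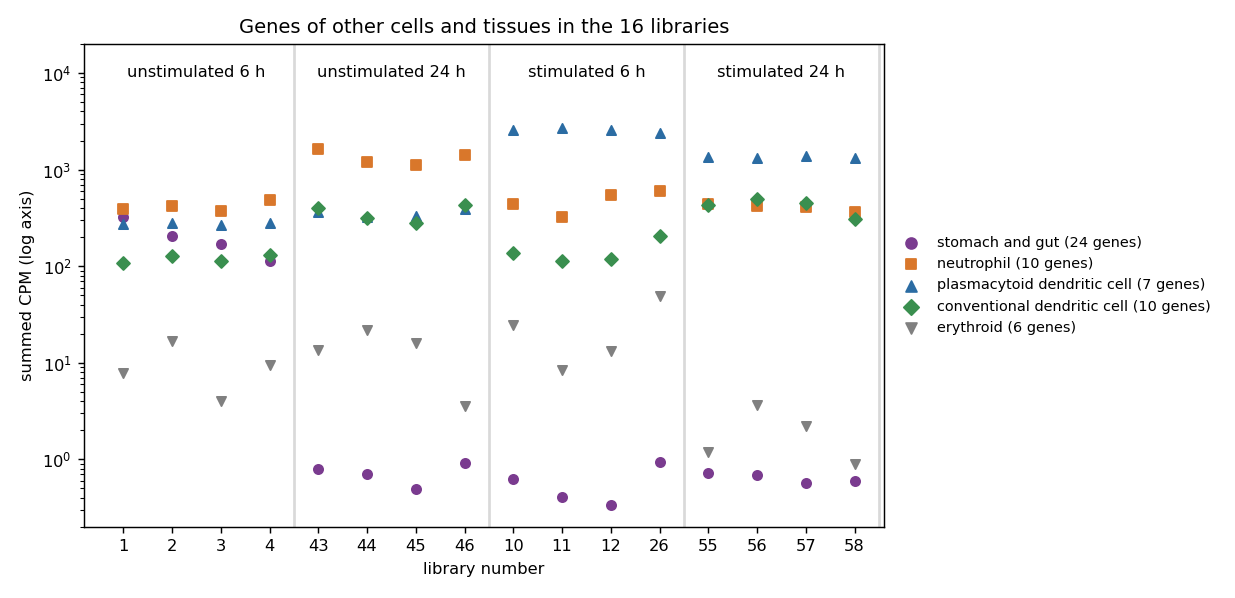
Summed CPM on a log axis (vertical) of the genes of other cells and tissues in each of the 16 libraries (horizontal axis), by marker list. Stomach and gut genes are at 114 to 324 CPM in libraries 1 to 4 and under 1 CPM in the others, and the neutrophil sum is highest in unstimulated libraries at 24 h.

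Genes of amino acid supply and the integrated stress response fell for 10 of 21 (47.6%, against 7.26% of all genes), and 0 rose. Psat1 and Phgdh, which make serine, had log2 fold changes of -1.93 and -1.89, and Asns, asparagine synthetase, of -1.84. Psat1 stood at 42.0, 52.0, 43.4 and 43.3 CPM and then at 9.61, 11.0, 12.0 and 15.2 CPM. Nupr1, Trib3 and Chac1, induced under stress, were at -2.14, -1.81 and -1.65. The factors themselves, Atf4 and Ddit3 (CHOP), were at -0.24 and -0.12.

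Housekeeping families did not move by 2-fold. None of 78 cytosolic ribosomal protein genes was called, with log2 fold changes from -0.70 to 0.48. The counts were also 0 of 50 nuclear genes of the respiratory chain, 0 of 12 mitochondrially encoded genes, 0 of 37 translation factors and 0 of 22 genes of the unfolded protein response. All 8 NADPH oxidase genes, which serve the oxidative burst, were likewise not called, from -0.66 to 0.55. These counts rest on the 2-fold mark, and limma's adjusted p alone passes 7731 genes of the table.

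Of 16 clock genes, 6 rose and 1 fell (against 12.3% and 7.26% of all genes). Of the 15 that reached 1 CPM at both times, 5 rose (33.3%, against 10.9% of all such genes). Per1, a period gene, rose from 38, 34.1, 36.7 and 36.1 CPM to 102, 109, 126 and 114 CPM (1.63 ± 0.07), and Nr1d1 (REV-ERBα), Dbp and Per3 rose by 2.21, 1.42 and 1.44. Arntl and Clock, the activators, were at -0.18 and 0.25. With a single pair of times, a daily rhythm and the age of the culture cannot be told apart. Of 15 glucocorticoid targets, 4 rose and 2 fell (26.7% and 13.3%, against 12.3% and 7.26% of all genes). Their median was -0.02, from Fkbp5 at -1.51 to Per1 at 1.63. Of the 14 that reached 1 CPM at both times, 3 rose (21.4%, against 10.9% of all such genes). Of 27 immediate early genes, 4 rose (14.8%, against 12.3% of all genes) and 1 fell (3.70%, against 7.26%), shares near those of all genes, with Egr3, Fosb, Myc and Atf3 higher by 2.64, 2.44, 1.58 and 1.31 and Fos, Egr1 and Nr4a1 not called at 0.54, 0.62 and 0.09.

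Of 21 hypoxia genes, 7 rose and 2 fell, with Pdk1, which closes pyruvate off from the mitochondria, at 1.80. Of 23 glycolysis genes, 5 rose and 1 fell, and Hk3 and Pfkfb3 both rose by 1.58. Of 18 genes of iron handling, 5 rose, among them Steap3 (2.17) and the transferrin receptor gene Tfrc (1.44). Of 30 NRF2 targets, 6 rose, among them Osgin1 (1.74), and 2 fell, 1 of which passed the filter on low values only through 6 h. The share that rose was 33.3% in the hypoxia list, 21.7% in the glycolysis list, 27.8% in the iron list and 20% in the NRF2 list, against 12.3% of all genes.

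The same times were compared in monocytes stimulated with interferon-γ plus CD40L. In a fit of all 16 libraries with 12306 genes, 2012 genes (16.3%) rose and 2071 (16.8%) fell in stimulated cells between 6 h and 24 h, and no library is shared with the unstimulated comparison. Of the 1417 genes that rose in unstimulated cells, 533 also rose in stimulated ones, which is 37.6% of the first list and 26.5% of the second. Another 218 fell there. Of the 834 that fell, 499 also fell in stimulated cells (59.8% of the first list and 24.1% of the second) and 21 rose. The change with time differed between stimulated and unstimulated cells (interaction with a fold of at least 2 and adjusted p under 0.05) for 3885 genes (31.6%), of which 1119 were among the 2251. The split of these counts depends on the scaling of the libraries. The deposited scaling puts reads over scaled size at 0.756 to 0.788 in the unstimulated libraries but at 1.24 to 1.32 and 0.970 to 0.997 in stimulated ones at 6 h and 24 h. When every library was instead scaled by its own reads (own-total scaling), the median log2 fold change in stimulated cells moved from 0.04 to 0.42, against 0.03 and 0.01 in unstimulated cells. The interactions then went from 1655 larger and 2230 smaller in stimulated cells to 3173 and 1486.

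**Figure D5:**
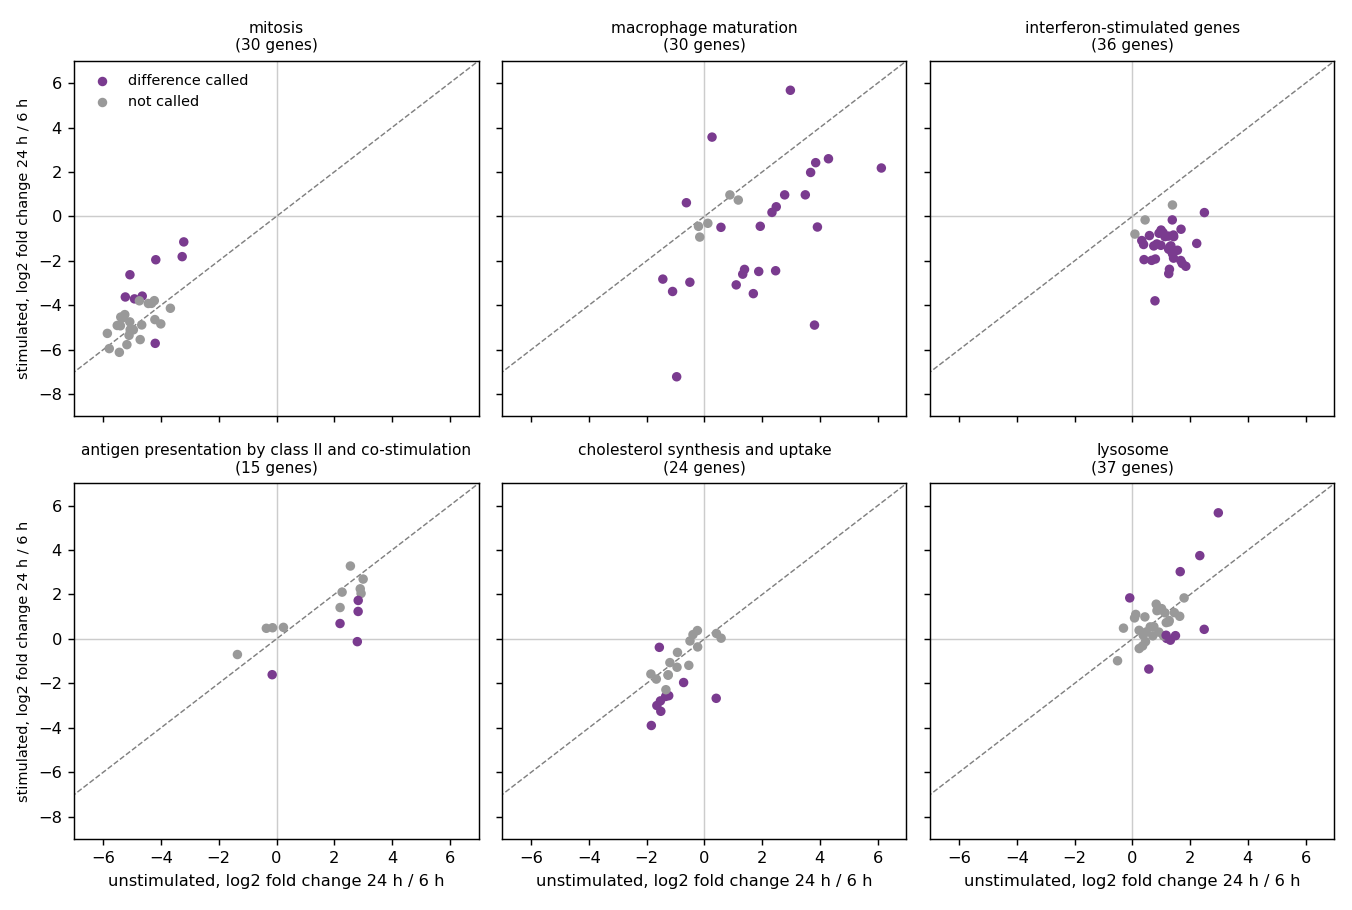
Log2 fold change at 24 h over 6 h in unstimulated (horizontal axis) and stimulated cells (vertical axis) for the members of 6 lists, purple where the difference was called, with a dashed line of equality. The mitosis genes are low on both axes, and nearly all interferon-stimulated genes are above 0 in unstimulated and below 0 in stimulated cells.

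Cell division fell with or without the stimulus. All 30 mitosis genes also fell in stimulated cells (against 16.8% of all genes), at a median of -4.62 on the log2 scale. The difference was called for 8 of them (against 31.6% of all genes). Cdk1 was at -4.93 in stimulated cells (difference 0.48 ± 0.37, adjusted p = 0.262). With own-total scaling 29 of the 30 were still called lower in stimulated cells. Cholesterol synthesis was also lower in both. In stimulated cells 16 of 24 were called lower (against 16.8% of all genes) at a median of -1.60, or 13 of 24 with own-total scaling.

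The macrophage genes parted. Of 32 genes of the list in the larger fit, 25 had a called difference (against 31.6% of all genes), 22 of them smaller in stimulated cells. With own-total scaling these counts were 23 and 20. Mrc1 rose in unstimulated cells and fell in stimulated ones, from 0.623 to 2.09 CPM to 0.00697 to 0.132 CPM (difference -8.71 ± 0.89). Its lowest value is that of 0 reads in library 56, so the size of this difference rests in part on the 0.5 read added before the log. Apoe was at 141 to 253 CPM at 6 h and 13.9 to 18.8 CPM at 24 h in stimulated cells, against its rise to 4536 to 5882 CPM without the stimulus (difference -5.17 ± 0.23). Mertk rose in both, to 40.4 to 55.1 CPM at 24 h with the stimulus, but from 8.23 to 13.5 CPM, so that the difference was -3.95 ± 0.50. C1qb was not called in stimulated cells, at -0.48. Maf and Cebpa differed by -3.96 and -1.45.

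The interferon-stimulated genes ran opposite. In stimulated cells 22 of 36 fell (against 16.8% of all genes, and 14 with own-total scaling) and 0 rose, with a median of -1.29. The difference was called for 33 (against 31.6% of all genes), all smaller in stimulated cells under either scaling. Mx1 stood at 3325 to 4166 CPM at 6 h and 657 to 881 CPM at 24 h with the stimulus, many times its level without it. Class II rose in both, with 8 of 15 called higher in stimulated cells (against 16.3% of all genes). The difference was called for 5 of the 15, all smaller in stimulated cells. With own-total scaling it was called for 8, of which 4 were larger and 4 smaller. H2-Aa went from 574 to 923 CPM to 3212 to 3485 CPM in stimulated cells, and its difference of -0.65 ± 0.16 was not called. Neutrophil markers, which rose without the stimulus, had 0 of 10 called higher and 2 called lower with it, or 1 higher and 0 lower with own-total scaling. The difference was called for all 10 (against 31.6% of all genes), and for 9 with own-total scaling.

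Among genes with a mean of at least 10 CPM over the 16 libraries, the largest differences included those of Pgc, Itga6, Fn1, F13a1, Ifnb1, Spp1 and Rab19. Pgc is a stomach gene whose difference of 11.72 goes with its reads at 6 h in unstimulated libraries. Itga6 fell from 3.28 to 5.29 CPM to 0.277 to 0.425 CPM in stimulated cells (difference -7.16 ± 0.31). Fn1 fell there from 423 to 740 CPM to 2.81 to 3.87 CPM (-6.46 ± 0.23), beside its fall by 1.07 without the stimulus. F13a1, coagulation factor XIII, and Spp1 differed by -6.36 and -6.26, and neither was called in unstimulated cells. Ifnb1 was at 35.2 to 78.5 CPM in stimulated cells at 6 h and at 0.880 to 2.17 CPM at 24 h, and it was never above 0.200 CPM without the stimulus.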

How the data were processed

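RNA of cultured mouse monocytes was sequenced as non-stranded polyA libraries. The deposited values are log2 CPM per gene for 16 libraries. Per the labels and the study's methods, the authors made them with FastQC, STAR, Rsubread, edgeR and limma (voom form), and the processing notes name GRCm39. Tool versions are not given in the sources used here. Whole reads could be recovered from all values within 0.01 read, with 0.5 read added before the log. They served for depth, read counts, floors, own-total scaling and, in an alternative fit, the weights of voom. Since the deposited unit is log2, no count model was run for the reported calls. Intervals of counting error are not given, and the floor of 3 reads covers counting error only.

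Genes that reached 1 CPM in 4 or more of the 8 unstimulated libraries were tested (11494 of 13085, with 17 symbols that read as dates and 1 symbol listed more than once) with limma 3.58.1 in R 4.3.3 (lmFit, eBayes with trend, two-sided, Benjamini-Hochberg adjusted over all genes tested). Genotypes were pooled with no covariate. A call needed a fold change of at least 2 and an adjusted p under 0.05, and errors are standard errors. Stimulated libraries entered a second fit of 16 libraries with an interaction term. Tables were handled in Python 3.11.15 with pandas 2.3.3, and the fit was tested on simulated data. Named genes are the 12 largest rises and 12 largest falls called with a mean of at least 10 CPM and no overlap, the list members with the largest changes or a described role, Nfam1, and the 8 largest called interactions with a mean of at least 10 CPM over 16 libraries, and some genes that this rule gives are not reported here. The members and lists were chosen with earlier results of these data known. Alternatives covered filters, scaling, thresholds, genotype and each library left out. Because the kit keeps no strand, overlapping and antisense genes cannot be told apart, and close copies are uncertain.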

Additional observations from a re-analysis of the deposited data

Results flagged for a closer look

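In 444 groups of 4 libraries examined, the highest or lowest library stood apart from the other 3 in 20, or 4.50%, and chance gives about 1 in 20. At 6 h, library 4 was the highest for Hpgds (1.46 CPM), Gpnmb (52.4 CPM) and Id2 (56.1 CPM) and the lowest for H2-Ob (0.843 CPM) and Trem1 (27.8 CPM). Library 3 was the lowest for Cd5l (0.962 CPM) and Ctsb (1138 CPM) and the highest for Ctss (1092 CPM). Library 2 was the highest for Rrm2 (77.8 CPM) and Psat1 (52.0 CPM) and had the fewest reads, 48295939. Library 1 was the lowest for Tgfbi (581 CPM). At 24 h, library 44 was the highest for Siglec1 (67.8 CPM), Tacc3 (12.2 CPM) and H2-Q7 (30.2 CPM). Library 46 was the highest for Nceh1 (178 CPM) and the lowest for Timp2 (29.6 CPM) and Trem3 (3.60 CPM). Library 43 was the lowest for Atf3 (294 CPM) and the highest for Gsta4 (0.122 CPM).

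The change with time differed between stimulated and unstimulated cells for 3885 genes by the interaction term of limma. Among named genes the differences, stimulated minus unstimulated on the log2 scale, were as follows. Pgc was at 11.72, Itga6 at -7.16, Fn1 at -6.46, F13a1 at -6.36, Ifnb1 at -6.34, Spp1 at -6.26 and Rab19 at -6.12. Of macrophage and monocyte genes, Mrc1 was at -8.71, Apoe at -5.17, C1qb at -4.39, Mertk at -3.95, Igf1 at -3.75, Cd63 at -2.06, Gpnmb at -1.70, Siglec1 at -1.70, Vcan at -1.65 and Fabp5 at -1.44. Of interferon-stimulated genes, Mx1 was at -4.10, Rsad2 at -3.67, Ifit3 at -3.31, Oasl2 at -2.34 and Irf7 at -1.54. Ccl2 was at -4.42, Hpgds at -3.93, Ciita at -1.59 and Sqle at -1.35, whereas Il1b was at 1.70, Nfkb2 at 1.54 and Ctsd at 1.41.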

How the results depend on the processing

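No paired analysis was possible because the labels give the groups no shared replicate numbers. Of 195 counts recomputed, 184 stayed within 1.5 times the reported count. Of 1425 list medians of the unstimulated comparison, 89 moved by more than the spread between libraries of a time. Among medians well clear of that spread, 0 changed sign, and sign changes of medians near 0 were not counted. In stimulated cells own-total scaling changed the sign of 18 of 65 list medians. With a mean of at least 5 CPM, 1381 genes were called, 801 of them higher, as fewer genes were tested. Adjusted p alone gave 7731 (4100 higher, 3631 lower), and a test against a fold of 1.2 gave 4678 (2665 higher, 2013 lower). With one library left out the unstimulated count was 2031 to 2207 (1214 to 1490 higher, 682 to 866 lower), that of interactions 3700 to 3893 (1573 to 1693 larger, 2089 to 2247 smaller) and that of stimulated cells 3938 to 4099 (1922 to 2023 higher, 1955 to 2097 lower). Own-total scaling gave 3173 larger and 1486 smaller interactions and 3260 genes higher in stimulated cells, and the alternatives for stimulated cells alone were chosen after seeing the data. Quantile normalization turned Csf1r to -0.25, Ccr2 to -0.020 and Lyz2 to 0.00, none of them called, and the interaction of Cd74 to 0.66. Own-total scaling turned the interaction of H2-Eb1 to 0.089, and the cause of these turns was not tested. Of 5414 values for named genes over time, 42 lost and 21 gained a call. Genes near the 1 CPM filter are limited by depth, and 4 libraries per time limit the precision of each value.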
